A study of Mus musculus with 98 samples.

Results

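The genes described are 9 that encode or receive hypothalamic signals of feeding, growth and reproduction: Agrp, Npy, Pomc, Cartpt, Ghrh, Tac2, Sst, Gal and Lepr. They were the members with a row among the 20415 rows of the mouse count table, out of 10 listed by symbol; the remaining one, Kiss1, is not analysed here. Their levels were measured by RNA sequencing in 22 libraries labelled arcuate nucleus (ARC) and 22 labelled suprachiasmatic nucleus (SCN). All mice were 10-week-old FRGN males, which carry Fah-/-, Rag2-/- and Il2rg-/- on a cross to the non-obese diabetic strain, and so lack the tyrosine-degrading enzyme FAH and have no T, B or NK cells. The Hu arm had livers repopulated with human hepatocytes and was selected for more than 70% human repopulation. The control Mu arm had livers repopulated with murine hepatocytes, and both arms received cycles of nitisinone (NTBC) and sulfamethoxazole with trimethoprim, and the same high energy mouse diet, so that immune deficiency, transplantation, drugs and diet were shared. Tissue was taken at zeitgeber times (ZT) 2, 6, 10, 14, 18 and 22 h. Each region had 12 Mu libraries, 2 at each time, and 10 Hu libraries, 2 at each time except 1 at ZT 6 and 1 at ZT 22. The labels do not say which libraries came from the same mouse, so p-values measure the spread between these libraries, part of which may be technical.

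The arcuate nucleus at the base of the hypothalamus holds neurons that read leptin, ghrelin and insulin from the blood. Neurons that make agouti-related peptide (Agrp) and neuropeptide Y (Npy) drive feeding, and neurons that make pro-opiomelanocortin (Pomc, the precursor of alpha-MSH) with the CART prepropeptide (Cartpt) restrain it; Agrp blocks the melanocortin receptors that alpha-MSH activates. Other arcuate neurons release growth hormone-releasing hormone (Ghrh), which somatostatin (Sst) opposes, and a further group makes kisspeptin with neurokinin B (Tac2) and drives the gonadotropin-releasing neurons. Galanin (Gal) is a widespread hypothalamic peptide, and Lepr is the leptin receptor, through which the fat-derived hormone acts on both feeding populations. The suprachiasmatic nucleus is the light-entrained pacemaker of the brain, and feeding peptides are not among its defining transcripts.

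The RefSeq promoter table (build GRCm38.p6) held 11 start sites for 9 of the 10 listed genes, and Agrp had none. The 250 bases before a start site are shown, on the strand of the gene, for Pomc, the member with a daily rhythm past the threshold, and for Ghrh, Gal and Tac2, whose levels varied together across SCN libraries. Capitals mark the letters TATAAA.
Pomc, chr12:3954695-3954944, plus strand: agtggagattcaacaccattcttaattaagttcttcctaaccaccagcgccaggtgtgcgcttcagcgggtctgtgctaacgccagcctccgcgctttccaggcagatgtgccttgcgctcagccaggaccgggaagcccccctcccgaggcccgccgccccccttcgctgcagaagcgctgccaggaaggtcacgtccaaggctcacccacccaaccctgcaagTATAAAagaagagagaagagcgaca
Ghrh, chr2:157337427-157337676, minus strand: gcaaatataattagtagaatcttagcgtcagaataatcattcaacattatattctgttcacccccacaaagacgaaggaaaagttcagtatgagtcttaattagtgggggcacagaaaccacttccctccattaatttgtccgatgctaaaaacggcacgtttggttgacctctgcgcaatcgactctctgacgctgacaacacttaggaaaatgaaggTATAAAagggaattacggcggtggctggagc
Gal, chr19:3414545-3414794, minus strand: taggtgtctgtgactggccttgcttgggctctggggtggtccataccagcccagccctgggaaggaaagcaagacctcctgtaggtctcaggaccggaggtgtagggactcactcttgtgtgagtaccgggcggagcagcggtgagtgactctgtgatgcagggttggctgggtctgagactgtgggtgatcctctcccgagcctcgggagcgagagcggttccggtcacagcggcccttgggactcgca
Tac2, chr10:127724228-127724477, plus strand: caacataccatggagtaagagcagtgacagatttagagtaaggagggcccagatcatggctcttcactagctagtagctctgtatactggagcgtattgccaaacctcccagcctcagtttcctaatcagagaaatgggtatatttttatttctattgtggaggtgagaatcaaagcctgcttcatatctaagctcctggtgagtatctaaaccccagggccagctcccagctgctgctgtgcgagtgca
Both strands of each window were searched for CACGTG (an E-box bound by clock factors), TGACGTCA (a cyclic AMP response element, CRE), TATAAA and TTCNNNGAA (a STAT element, the kind of site leptin signalling acts through). TATAAA began 25 bases before the start site of Pomc and 31 bases before the Ghrh start site shown, and it was present in 12.4% of 32851 promoters of this length. The CRE letters were found before Cartpt, 112 bases from its start site, and before Sst, 48 bases from its start site, against 1.55% of all promoters. No window of the 9 genes held the E-box or the STAT letters, which 6.02% and 7.02% of all promoters held. A match is a description of the letters and not a measured site.

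The libraries were checked against markers of the labelled regions. Total counts per library lay between 23.7 M and 47.1 M (M, mega) in ARC and between 25.5 M and 34.9 M in SCN. ARC libraries held Agrp at a median of 6.55 counts per 1000000 counts of a library (CPM, with library sizes scaled by TMM) but also Pmch (melanin-concentrating hormone, of the lateral hypothalamus) at a median of 519 CPM and Nr5a1 (of the ventromedial nucleus) at 11.2 CPM, so that they held RNA of neighbouring nuclei. In SCN libraries Pmch had a median of 1.46 CPM and Nr5a1 of 0.0669 CPM. Of 8 markers of suprachiasmatic neurons, 5 were lower and 1 was higher in SCN libraries than in ARC libraries. The 1 higher was Prok2 (0.87 ± 0.24), a clock output peptide named after its value was seen. Six6, an eye and suprachiasmatic transcription factor, was lower, with an SCN minus ARC difference of -2.99 ± 0.29 on the log2 scale (± SE, here and below for fitted differences), while the pacemaker peptide Vip had a median of 3.82 CPM in SCN against 4.20 CPM in ARC. The SCN label was therefore not borne out by a higher level of these markers, and "SCN" below means the libraries so labelled. Summed over 8 suprachiasmatic markers, SCN libraries ranged from 46.5 to 424 CPM and ARC libraries from 162 to 514 CPM. How much of each result reflects the tissue taken was not tested. In tissue libraries of this kind, fewer cells of a type and less RNA per cell cannot be told apart.

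The feeding, growth and leptin-sensing genes were higher in ARC than in SCN libraries, and the differences of Tac2 and Gal did not pass the test. Of the 9 genes, 7 passed the test between regions, all lower in SCN, and 6 were lower by more than 2-fold. Over all 15424 genes tested, 71.6% passed the test between regions, and 4.19% passed it and were lower in SCN by more than 2-fold. The median difference, SCN minus ARC, was -1.82 on the log2 scale over the 9 genes and 0.02 over all genes. The test was edgeR's quasi-likelihood F test with Benjamini-Hochberg adjustment over all genes, with a threshold of 0.05.

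Agrp, the melanocortin antagonist, ranged from 2.07 to 26.2 CPM in ARC, with a median of 6.55 CPM. In SCN it ranged from 0.293 to 1.003 CPM, with a median of 0.530 CPM. Every SCN library lay below every ARC library, and the fitted ARC level was 12.8-fold the SCN level (95% interval 9.36 to 17.4; adjusted p = 1.14e-16). In the 27 muscle libraries of the same series, a tissue without these neurons, Agrp had a median of 0.578 CPM (0.115 to 2.51), close to its SCN median. Muscle CPM, here and below, were scaled on the total of each library without TMM, so they compare with the brain values only roughly. Of the 1013 exonic bases of Agrp (chr8:105566698-105637393, minus strand, GRCm38, protein coding), 114 overlap exons of Ctcf on the other strand and of the long noncoding gene Gm5914 on the same strand, so the Agrp counts are uncertain where the counting could have split those reads. Npy, the orexigenic partner of Agrp, ranged from 8.04 to 66.9 CPM in ARC (median 22.5) and from 2.53 to 17.8 CPM in SCN (median 6.01). Of the 22 SCN libraries, 18 lay below every ARC library, and the fitted ratio was 3.72-fold (2.89 to 4.78; adjusted p = 1.30e-11). The SCN median of Npy stood above its muscle median of 0.0535 CPM (0 to 3.57), and the 2 ranges overlapped.

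Pomc, the melanocortin precursor, ranged from 18.3 to 118 CPM in ARC, with a median of 33.6 CPM. In SCN its median was 2.00 CPM, and 21 of 22 libraries lay below every ARC library. The exception was Mu ZT 6 replicate 1, at 56.8 CPM, and the next highest SCN value was 10.3 CPM. The fitted ratio was 11.7-fold (7.88 to 17.3; adjusted p = 1.41e-13). Cartpt, the CART precursor, was more even within each region, at 53.7 to 101 CPM in ARC (median 66.6) and 12.02 to 56.8 CPM in SCN (median 17.2). It was 3.54-fold higher in ARC (3.02 to 4.15; adjusted p = 2.37e-16), and 21 of 22 SCN libraries lay below every ARC library.

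Ghrh, the releasing hormone for growth hormone, was detected at 3.70 to 9.49 CPM in ARC, with a median of 6.17 CPM. In SCN it lay between 0.0737 and 1.78 CPM, and 3 of 22 libraries had 3 or fewer counts. The regions did not overlap, and the fitted ratio was 9.06-fold (6.69 to 12.3; adjusted p = 2.93e-15). Sst, which inhibits growth hormone release, ranged from 99.5 to 176 CPM in ARC (median 132) and from 37.1 to 132 CPM in SCN (median 59.7). It was 1.98-fold higher in ARC (1.72 to 2.28; adjusted p = 5.53e-11), with 20 of 22 SCN libraries below every ARC library. Neither Ghrh nor Sst had a single count in any of the 27 muscle libraries.

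Tac2, the neurokinin B precursor of the kisspeptin neurons, ranged from 13.3 to 26.9 CPM in ARC, with a median of 20.99 CPM. In SCN it spread from 4.13 to 45.8 CPM around a median of 17.7 CPM, so the SCN values ran past the ARC values at both ends. The difference of -0.28 ± 0.16 did not pass the test (adjusted p = 0.128), and its interval ran from -0.61 to 0.06. Gal, galanin, ranged from 28.3 to 68.1 CPM in ARC (median 44.4) and from 1.95 to 74.4 CPM in SCN (median 33.1). Its difference of -0.43 ± 0.24 did not pass either (adjusted p = 0.103; interval -0.91 to 0.05). Without SCN Mu ZT 10 replicate 2, the library with the highest Gal of the SCN, both genes passed (differences of -0.65 for Gal and -0.38 for Tac2). Gal also passed with ZT as a factor (-0.52, adjusted p = 0.0348) and in the fit with a replicate block (-0.70, adjusted p = 0.0482), and Tac2 without ZT 22 (-0.45, adjusted p = 0.0353). The fit with a replicate block also left out the unnumbered Hu libraries of ZT 22. The coefficient of variation over libraries was 26.0% for Gal and 16.9% for Tac2 in ARC, and 62.0% and 56.7% in SCN.

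Lepr, the leptin receptor, lay between 3.30 and 8.39 CPM in ARC, with a median of 5.54 CPM. In SCN it lay between 0.738 and 7.97 CPM, with a median of 1.71 CPM, and 17 of 22 libraries were below every ARC library. It was 2.38-fold higher in ARC (1.83 to 3.08; adjusted p = 2.15e-07). In muscle, scaled without TMM, it had a median of 10.1 CPM, above its median in either brain region. The region by arm test called no member with edgeR or DESeq2, and 1 had an unadjusted p under 0.05: 0% of all genes passed, 175 of 15424 genes had an unadjusted p under 0.05 with the same test, and DESeq2 called 1 gene. Npy had the smallest unadjusted p of the members (0.0302, edgeR adjusted p = 0.9999): its SCN minus ARC difference was -0.79 ± 0.35 in the Hu arm relative to the Mu arm.

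The measured genes are all protein coding, and the remaining 8 lie in GRCm38 at chr6:49822710-49829507 (Npy, plus strand), chr12:3954951-3960642 (Pomc, plus), chr13:99898489-99901091 (Cartpt, minus), chr2:157329497-157347506 (Ghrh, minus), chr10:127724478-127731768 (Tac2, plus), chr16:23889573-23890958 (Sst, minus), chr19:3409915-3414544 (Gal, minus) and chr4:101717404-101815352 (Lepr, plus). None of these 8 shares exonic bases with another gene of the GENCODE vM21 annotation.

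**Figure D1:**
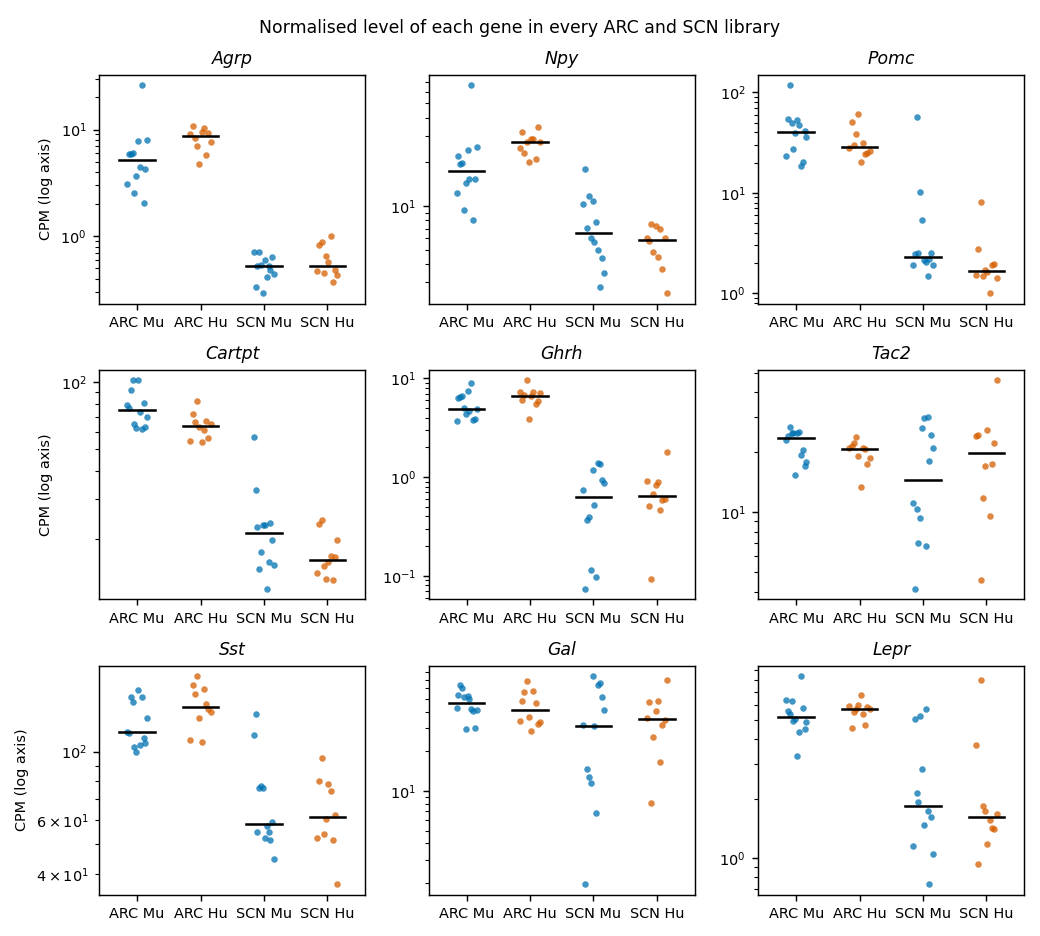
Normalised counts (CPM) on a log axis for the 9 genes in each of the 44 libraries, with blue points for the Mu arm and orange points for the Hu arm and a black line at the median of each group. Agrp and Ghrh do not overlap between regions, Gal and Tac2 do, and single Mu libraries stand high for Agrp and Npy in ARC (26.2 and 66.9 CPM) and for Pomc in SCN (56.8 CPM).

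**Figure D2:**
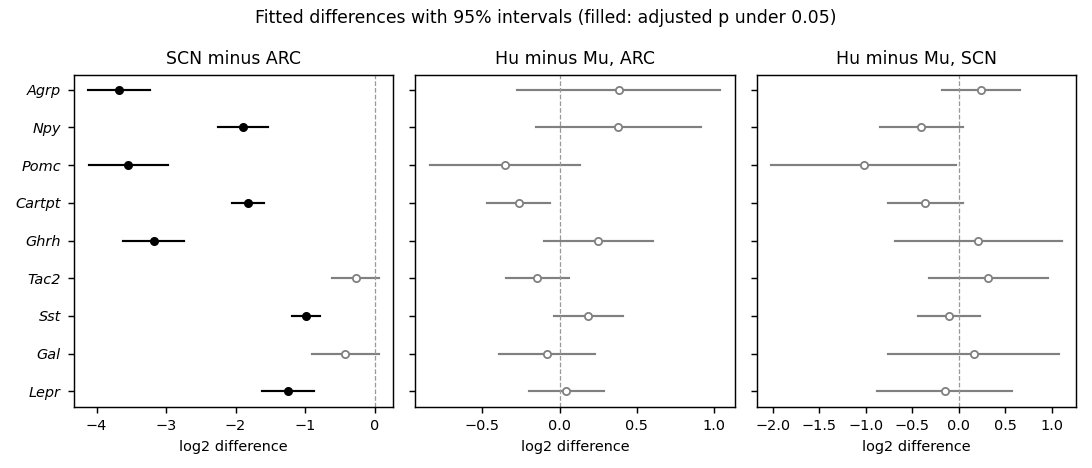
Fitted log2 differences (points) with 95% intervals (lines) for each gene, as SCN minus ARC on the left and as Hu minus Mu within ARC and SCN in the middle and right panels, where the horizontal scales differ. Filled black points passed the adjusted threshold of 0.05: 7 of 9 between regions and 0 of 9 between arms in either region.

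Levels were compared between genes per kilobase of exon. In ARC the order by median was Sst (183 CPM per kb), Gal (56.3), Cartpt (52.1), Npy (39.7), Pomc (25.5), Tac2 (15.2), Ghrh (9.24), Agrp (6.46) and Lepr (0.786). Sst was above Gal and Agrp was above Lepr in all 22 ARC libraries, with ranges that did not overlap. Gal was above Cartpt in 11 of 22 ARC libraries and Npy was above Pomc in 13, so these neighbours were not separated. In SCN the order was Sst (82.8 CPM per kb), Gal (42.0), Cartpt (13.5), Tac2 (12.9), Npy (10.6), Pomc (1.52), Ghrh (0.953), Agrp (0.523) and Lepr (0.243). There the ranges of all neighbours overlapped, and Cartpt was above Tac2 in 11 of 22 libraries. The median Npy level per kb was above that of Agrp in both regions, at 39.7 against 6.46 in ARC and 10.6 against 0.523 in SCN.

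Genes that make, bind or specify these peptides were read from lists chosen with the members. All 6 prohormone-processing genes were lower in SCN, among them Pcsk1 (SCN minus ARC -1.05 ± 0.07 on the log2 scale) and Pcsk2 (-1.04 ± 0.06), the convertases that cut Pomc, and Pam (-0.92 ± 0.05), the amidating enzyme. Of 8 transcription factors of arcuate neurons, 6 were lower and 1 higher in SCN, including Bsx (-3.67 ± 0.20), a factor needed for Agrp and Npy expression, Tbx3 (-1.53 ± 0.09) and Nhlh2 (-1.62 ± 0.10). Of 10 receptors of feeding peptides and hormones, 4 were lower and 3 higher in SCN. The melanocortin receptor gene Mc3r (-1.50 ± 0.17), the ghrelin receptor gene Ghsr (-1.78 ± 0.21) and Glp1r (-1.07 ± 0.13) were among those lower.

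The leptin signalling list had 4 lower and 2 higher of 7, with smaller differences than Lepr itself: Jak2 differed by -0.36 ± 0.04, Stat5b by -0.36 ± 0.04 and the feedback inhibitor Socs3 by -0.70 ± 0.10. In the growth hormone list, 7 of 8 tested genes were lower in SCN and 1 higher, and those with the smallest p were Gsx1 (-1.95 ± 0.11), a factor needed for Ghrh neurons, the growth hormone receptor gene Ghr (-0.63 ± 0.06) and Ghsr. Of 9 genes of the kisspeptin and gonadotropin axis, 6 were lower and 2 higher. Pdyn (dynorphin, made with Tac2 in kisspeptin neurons) differed by -1.51 ± 0.12 and the kappa opioid receptor gene Oprk1 by -0.66 ± 0.07, while Gnrh1, the gonadotropin-releasing hormone gene, was higher in SCN by 2.07 ± 0.15. Galr1, the 1 galanin receptor gene tested, was lower, with a difference of -1.01 ± 0.10. These shares are to be read against the 71.6% of all genes that passed between regions.

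The Hu and Mu arms were compared to ask whether the species of the hepatocytes went with the level of these brain peptides. No member passed the test in either region, 1 in each had an unadjusted p under 0.05, and DESeq2 called none. In ARC the same test called 1 of 15079 genes (0.00663%), 640 genes had an unadjusted p under 0.05, and DESeq2 called 14 genes. In SCN it called 0 of 15006 (0%), with 325 at an unadjusted p under 0.05 and 1 called by DESeq2. The differences below are Hu minus Mu, averaged over time.

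Agrp in ARC had a median of 8.70 CPM in the Hu arm (4.74 to 10.8) and 5.16 CPM in the Mu arm (2.07 to 26.2). Npy had 27.2 CPM in the Hu arm (20.0 to 34.7) and 17.3 CPM in the Mu arm (8.04 to 66.9). For Npy the Mu median was below all 10 libraries of the Hu arm, and for Agrp below 9, but the Mu range enclosed all 10 Hu libraries for both genes. The fitted differences were 0.38 ± 0.31 for Agrp and 0.38 ± 0.25 for Npy, with intervals of -0.27 to 1.04 and -0.16 to 0.92 (adjusted p = 0.999 for both). Without Mu ZT 18 replicate 1 they were 0.76 for Agrp (adjusted p = 0.584) and 0.67 for Npy (adjusted p = 0.402). Pomc in ARC had a median of 28.8 CPM in the Hu arm (20.1 to 60.4) and 40.0 CPM in the Mu arm (18.3 to 118), a fitted difference of -0.35 ± 0.23 (-0.84 to 0.13). Cartpt had the smallest unadjusted p in ARC: its median was 63.9 CPM in the Hu arm (53.7 to 82.0) and 74.7 CPM in the Mu arm (61.7 to 101), with a difference of -0.27 ± 0.10 (unadjusted p = 0.0122, adjusted p = 0.941). The Mu median of Cartpt was exceeded by 1 of 10 libraries of the Hu arm. In ARC both appetite-driving peptides had higher medians and both appetite-restraining peptides lower medians in the Hu arm, while no difference of these 4 genes passed the adjusted threshold. Agrp and Npy varied together there (r = 0.979), so they do not count as 2 independent observations. In SCN the Hu medians of Npy (5.89 against 6.51 CPM) and Agrp (0.525 against 0.530 CPM) were lower, though the fitted difference of Agrp there was 0.24 ± 0.20.

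The other members in ARC differed by less. Ghrh was at 0.25 ± 0.17, Sst at 0.18 ± 0.11, Lepr at 0.04 ± 0.11, Gal at -0.08 ± 0.15 and Tac2 at -0.14 ± 0.10. The 95% interval of the Hu level relative to the Mu level was 0.870-fold to 1.22-fold for Lepr, and 0.827-fold to 2.06-fold for Agrp with all libraries. In SCN, Pomc differed by -1.02 ± 0.47 (unadjusted p = 0.0417, edgeR adjusted p = 0.9999), and by -0.40 without Mu ZT 6 replicate 1. Pomc medians there were 1.67 CPM in the Hu arm and 2.32 CPM in the Mu arm, and the Mu arm held the library at 56.8 CPM. Npy and Cartpt in SCN differed by -0.40 ± 0.21 and -0.36 ± 0.19, and the remaining 6 genes by between -0.15 (Lepr) and 0.32 (Tac2). No gene of the 7 pathway lists passed between arms in either region.

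Feeding peptides are known to follow the daily cycle of feeding and fasting, so each gene was tested for a 24 h cosine. Amplitude is the log2 distance from mean to peak, given with the SE of its cosine and sine coefficients, and the peak is the fitted ZT. No member passed in ARC, where a rhythm common to both arms was called for 4.53% of 15079 genes. The rhythm in the Mu arm alone was called for 1.41% of genes and in the Hu arm alone for 0.0995%, again with no member. Of the 9 genes, 2 had an unadjusted p under 0.05 for the common rhythm, 1 in the Mu arm and 0 in the Hu arm, and DESeq2 called 0 in each. Over all 15079 genes, such an unadjusted p was found for 2913 in the common rhythm, 2188 in the Mu arm and 885 in the Hu arm, and DESeq2 called 1118, 514 and 92 genes. A difference in rhythm between arms was called for 0% of genes in ARC, with 269 genes at an unadjusted p under 0.05, no member among them, and none called by DESeq2.

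Pomc came nearest in ARC, with an amplitude of 0.57 ± 0.16 and a peak at ZT 6.63 (adjusted p = 0.0863). The fitted peaks of the 2 arms were alike, at ZT 6.55 in Mu and ZT 6.78 in Hu. Its mean over both arms was 66.1 CPM at ZT 6 and 21.96 CPM at ZT 18, and all 4 libraries at ZT 18 lay between 18.3 and 24.8 CPM. At ZT 6 the 3 libraries lay at 118, 49.95 and 30.0 CPM, so the range of ZT 18 fell below that of ZT 6. Without Mu ZT 6 replicate 1, the library at 118 CPM, the amplitude was lower, at 0.39 (adjusted p = 0.303). Gal had an amplitude of 0.27 ± 0.10 with a peak at ZT 8.04 (unadjusted p = 0.0438, adjusted p = 0.242), and its 3 libraries at ZT 6 lay between 56.1 and 64.0 CPM against 29.9 to 40.9 CPM at ZT 22.

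Agrp and Npy in ARC had fitted peaks at ZT 19.3, with amplitudes of 0.45 ± 0.22 and 0.36 ± 0.17 (adjusted p = 0.424 and 0.422). At ZT 18 the 2 Mu libraries held Agrp at 26.2 and 2.07 CPM and Npy at 66.9 and 8.04 CPM, the highest and lowest values of the 22 ARC libraries. The 2 Hu libraries at ZT 18 held Agrp at 5.78 and 9.21 CPM. In the Hu arm the amplitude of Agrp was 0.12 ± 0.33, and without Mu ZT 18 replicate 1 the amplitude of the common rhythm was 0.12 for Agrp (adjusted p = 0.824) and 0.11 for Npy (adjusted p = 0.792). The common amplitudes of the remaining genes were those of Cartpt (0.12 ± 0.07), Tac2 (0.15 ± 0.07), Ghrh (0.06 ± 0.12), Sst (0.04 ± 0.07) and Lepr (0.04 ± 0.08). Of the pathway lists, 1 gene had a common rhythm in ARC: Stat5a, a leptin-activated transcription factor, with an amplitude of 0.32 ± 0.06 and a peak at ZT 5.96 (adjusted p = 0.0118). Among the marker lists, Prok2 had a common rhythm in ARC, with an amplitude of 1.01 ± 0.20 and a peak at ZT 6.47 (adjusted p = 0.0121). So did Cldn5 (0.40 ± 0.09, peak ZT 22.5, adjusted p = 0.0252) and Aldh1l1 (0.13 ± 0.03, peak ZT 17.7, adjusted p = 0.0289).

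**Figure D3:**
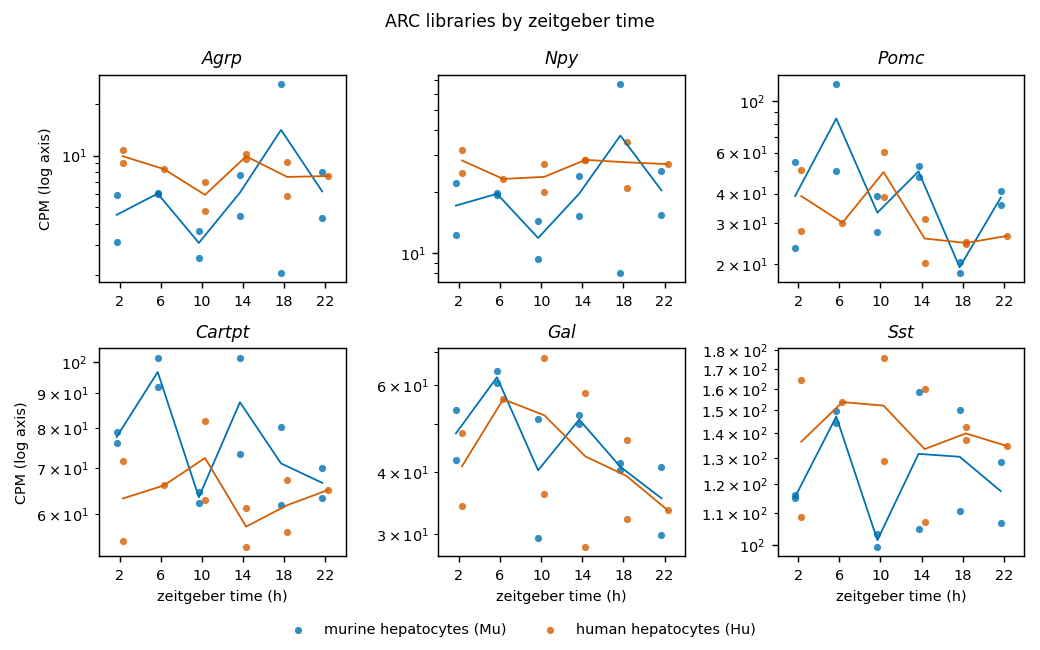
CPM on a log axis against zeitgeber time in ARC libraries for 6 of the genes, with points for libraries, lines through the mean of each time, blue for the Mu arm and orange for the Hu arm. Pomc is highest at ZT 6 in a single Mu library (118 CPM), and the 2 Mu libraries at ZT 18 hold the highest and the lowest Agrp and Npy.

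In SCN libraries 1 member passed: Pomc, with an amplitude of 1.44 ± 0.32 and a peak at ZT 6.43 (adjusted p = 0.0485), where 1.52% of 15006 genes had a common rhythm. Its 3 libraries at ZT 6 held 56.8 and 2.53 CPM in the Mu arm and 8.03 CPM in the Hu arm, and at ZT 10 the 2 Mu libraries held 10.3 and 5.42 CPM. The other libraries lay between 1.003 and 2.77 CPM. The call did not hold without Mu ZT 6 replicate 1, where the amplitude was 0.80 (adjusted p = 0.117), and it was lost on leaving out any of 15 of the 22 SCN libraries, with adjusted p between 0.0341 and 0.127 over the 22 fits. It was also lost with the libraries that stood apart left out together, a choice made after seeing the data (Mu ZT 6 replicate 1 and Mu ZT 14 replicate 1; adjusted p = 0.173). The Mu library at 56.8 CPM carried the same arm, time and number as the ARC library with the highest Pomc. Because the anterior pituitary makes much Pomc, 6 of its markers were read in that SCN library. Gh stood at 1.59 CPM, below 6.07 and 5.27 CPM in the Mu libraries of ZT 10, and was 1.08 CPM in the Hu library of ZT 6. At ZT 14 the Mu libraries held Gh at 15.3 and 4.25 CPM, with Pomc at 2.14 and 2.06 CPM. Every other SCN library held Gh at 0.406 CPM or less. The SCN libraries with the highest Pomc were thus among those with the highest Gh, as were the Mu libraries of ZT 14, where Pomc was low. In the SCN library at 56.8 CPM of Pomc, Tbx19 rested on 5 counts, at 0.165 CPM, the highest value of the SCN libraries. There Cga (0.0662 CPM), Tshb (0.0331), Prl (0.0992) and Lhb (0.165) were each lower than in some other SCN libraries. Prl was at 0.0369 CPM or less in the SCN libraries with Gh at 0.406 CPM or less. The ARC library of the same arm, time and number held Gh at 1.90 CPM, against up to 29.0 CPM in other ARC libraries. The part of these markers in the Pomc values was not tested.

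A further 5 members had an unadjusted p under 0.05 for a common rhythm in SCN without passing adjustment, where 2822 of all 15006 genes had such an unadjusted p. Npy (amplitude 0.58 ± 0.16, peak ZT 6.39, adjusted p = 0.116) had a mean of 9.999 CPM at ZT 2 and 3.47 CPM at ZT 22. At ZT 2 the Mu libraries held 10.4 and 17.8 CPM and the Hu libraries 6.05 and 5.75 CPM. Sst (0.32 ± 0.12, peak ZT 5.47, adjusted p = 0.239) had a mean of 94.4 CPM at ZT 2 and 47.1 CPM at ZT 22. Lepr (0.75 ± 0.26, peak ZT 7.23, adjusted p = 0.211) and Cartpt (0.37 ± 0.12, peak ZT 2.40, adjusted p = 0.198) had fitted peaks in the same part of the day. Tac2 (0.63 ± 0.23, peak ZT 19.04, adjusted p = 0.247) had its fitted peak near those of Gal (ZT 18.8) and Ghrh (ZT 19.6), whose unadjusted p were 0.172 and 0.0942. The rhythm was called in the Mu arm alone for 0.207% of genes and in the Hu arm alone for 0.00666%, with no member in either. Unadjusted, 4 members were under 0.05 in the Mu arm and 1 in the Hu arm, against 1747 and 828 of all 15006 genes. DESeq2 called 2 members and 289 genes in the Mu arm, and 0 members and 22 genes in the Hu arm. No gene had a different rhythm between arms in SCN (0%), with 210 genes at an unadjusted p under 0.05, no member among them, and none called by DESeq2.

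**Figure D4:**
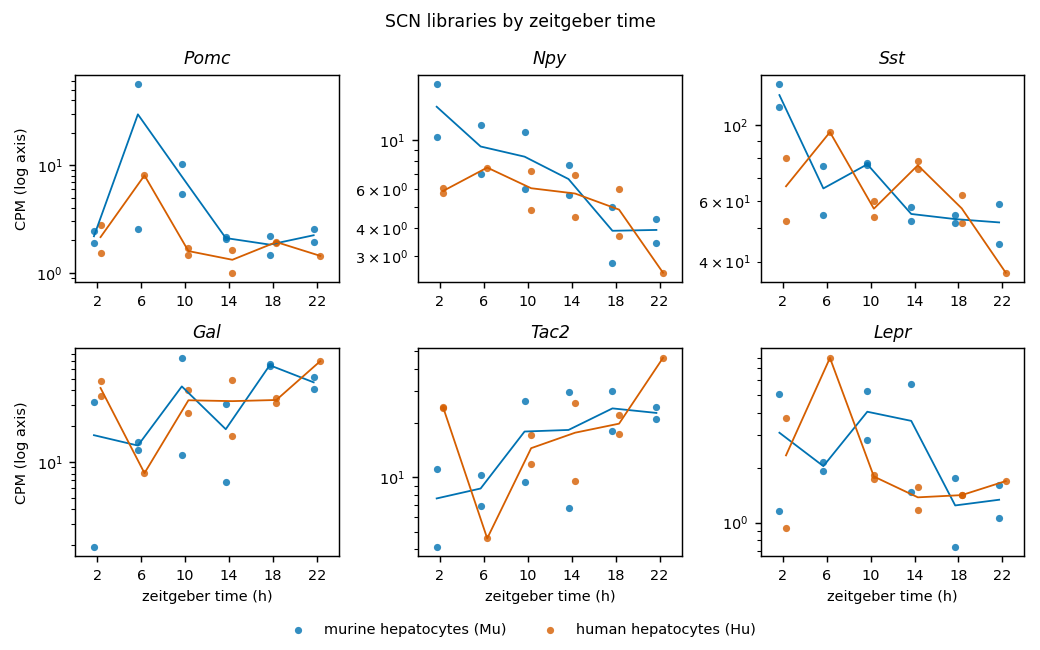
CPM on a log axis against zeitgeber time in SCN libraries for 6 of the genes, with points for libraries, lines through the mean of each time, blue for the Mu arm and orange for the Hu arm. Pomc is high at ZT 6 in 1 Mu library (56.8 CPM) and in the single Hu library (8.03 CPM), and Npy and Sst are lowest at ZT 22 in the Hu arm, where there is 1 library.

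Peptides made in the same neurons were compared library by library, with Pearson's r and Spearman's rho of log2 CPM over the 22 libraries of a region and 2-sided permutation tests (100000 resamples, for which 1e-05 is the smallest p), adjusted over 6 relations. In ARC, Agrp and Npy varied together: r was 0.979 and rho 0.941 (p = 1e-05 and adjusted p = 3e-05 for both). Without the 2 libraries farthest from the Agrp median, both of ZT 18 in the Mu arm, r was 0.958. It was 0.996 within the Mu arm and 0.796 within the Hu arm. The ratio of Npy to Agrp counts stayed between 2.56 and 4.22 in ARC, while Npy counts themselves differed by 14.5-fold between the lowest and the highest library. In SCN, where Agrp was near its muscle level, r was 0.05 and rho 0.14 (p = 0.820 and 0.534). Within the arms r there had opposite signs, at -0.220 in Mu and 0.679 in Hu.

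Pomc and Cartpt were related in ARC by r (0.542, p = 0.00912, adjusted p = 0.0182) but not past the threshold by rho (0.441, adjusted p = 0.0620). Without the 2 libraries farthest from the Pomc median r was 0.430 (adjusted p = 0.0913), no longer past the threshold. It was 0.505 within the Mu arm and 0.511 within the Hu arm. In deviations from the mean of each arm and ZT, r was 0.02. In SCN r was 0.224 and rho 0.440 (adjusted p = 0.336 and 0.0620).

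Ghrh and Gal had the strongest relation in SCN, with r = 0.927 and rho = 0.932 (p = 1e-05 and adjusted p = 3e-05 for both). It held without the 2 libraries farthest from the Ghrh median (r = 0.921) and within each arm (r = 0.945 in Mu and 0.897 in Hu). In ARC r was 0.403 and rho 0.413 (adjusted p = 0.0948 and 0.0683). Tac2 followed Gal as well, with r = 0.904 in SCN and 0.853 in ARC, and Sst followed Npy with r = 0.787 in SCN and 0.591 in ARC; these 2 pairs were chosen after their values were seen and are given without a test. The SCN library of Mu ZT 2 replicate 2 held the lowest Gal (1.95 CPM), Ghrh (0.0737 CPM) and Tac2 (4.13 CPM) and the highest Npy (17.8 CPM) and Sst (132 CPM).

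Some marker sums moved with the genes of these pairs across SCN libraries. Those named were picked after their values were seen, out of every marker list against every member. In SCN the ventromedial list had r = 0.744 with Gal, 0.803 with Ghrh and 0.804 with Tac2. The oligodendrocyte and optic tract list had r = -0.07 with Gal, -0.22 with Ghrh and -0.06 with Tac2. Over 22 libraries, the summed level of 4 paraventricular and supraoptic markers had r = 0.92 with Gal, 0.858 with Ghrh and 0.877 with Tac2, and it ranged from 22.7 to 231 CPM. The lateral and dorsomedial list had r = 0.881 with Gal, 0.836 with Ghrh and 0.909 with Tac2. Its sum ranged from 2.90 to 13.2 CPM in SCN (median 7.02), with Hcrt (orexin) at a median of 0.144 CPM. Its 4 genes include Grp, which is also in the suprachiasmatic list, so the sum is not of Pmch and Hcrt alone. The microglia list had r = -0.760 with Gal and 0.807 with Npy, and the astrocyte list -0.724 with Gal. In ARC, the choroid plexus and ependyma list had r = 0.704 with Agrp and 0.691 with Npy, and the paraventricular and supraoptic list 0.837 with Gal and 0.809 with Sst. These correlations share libraries and depth, and the part of the dissected area in the relations between members was not tested.

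**Figure D5:**
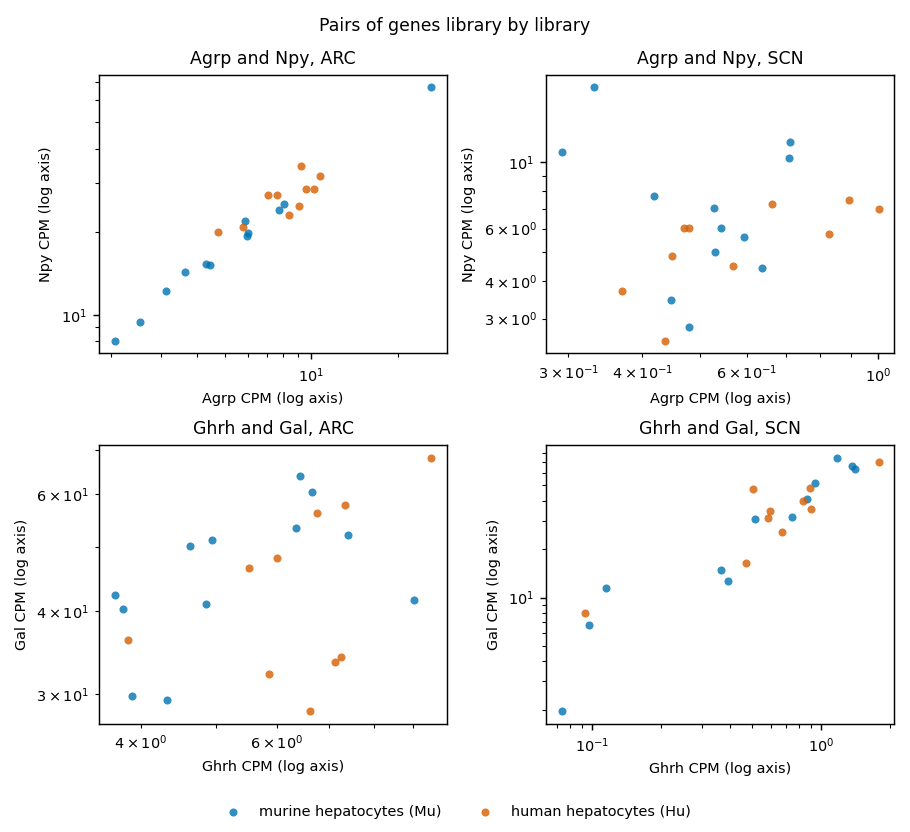
CPM of Npy against Agrp (top) and Gal against Ghrh (bottom) on log axes, for ARC libraries on the left and SCN libraries on the right, with 1 point per library, blue for the Mu arm and orange for the Hu arm. Agrp and Npy lie on a line in ARC (r = 0.979) and are scattered in SCN (r = 0.05), while Ghrh and Gal lie on a line in SCN (r = 0.927) and are looser in ARC (r = 0.403).

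The genes outside the list with the pattern most like each member over the 22 ARC libraries were ranked by Pearson's r of log2 CPM among 15039 genes. For Agrp they were Tmem140 (0.793), Cyp1b1 (0.783) and Fbln5 (0.774), and for Npy Tmem140 (0.798), Fbln5 (0.781) and Phyhd1 (0.773); without Mu ZT 18 replicate 1 the values for Tmem140 were 0.731 and 0.739. The highest of these values, 0.798, lay below the r of 0.979 between Agrp and Npy. For Pomc they were Pex3 (0.718), Tamm41 (0.705) and Dok1 (0.696), and for Cartpt H2-Q2 (0.830), Nrgn (0.829) and Mfge8 (0.819). For Ghrh they were Tmem176a (0.763), Qrfp (0.751) and Smoc1 (0.722). Gal had the closest matches of the 9, with Dlx6 (0.924), Zcchc12 (0.915) and Ecel1 (0.914). Tac2 was followed by Lamp5 (0.848), Pdcd4 (0.845) and Tmem215 (0.839), and Sst by Mesd (0.864), Oxt (0.825) and Clcc1 (0.807). Lepr was followed by Pik3r1 (0.753), Pign (0.752) and Lpin1 (0.750). These ranks describe 22 libraries and were not tested.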

How the data were processed

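Counts per mouse gene were used as the authors deposited them: whole numbers, not normalized, in 1 table for muscle, ARC and SCN, of which 20329 of 20415 rows matched a symbol. Per the labels, RNA was isolated on RNeasy columns and libraries were made with a directional kit. The submitters' processing notes name STAR and the builds GRCm38, mm10, GRCh38, hg38 and hg19 with no role; the counting program and its strand setting are not given in the sources used here. Groups came from the labels. The Hu columns of ZT 22 in ARC and SCN could be tied to their group but not to a numbered sample and were used without a number. Replicates differed by more than counting noise in all 20 groups with 2 libraries.

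Counts were scaled by TMM and filtered by filterByExpr in edgeR 4.0.16 (R 4.3.3). Per region, quasi-likelihood F tests used the arm and a cosine and sine of 24 h for each arm (1 pair for a common rhythm). All 44 libraries were fitted together for region, arm and their interaction with the same time terms. Adjusted p-values are Benjamini-Hochberg over all genes tested. Intervals of fitted differences are 95% with residual degrees of freedom of the libraries. Log2 CPM used a prior count of 2; exon lengths and positions came from the GENCODE vM21 annotation of GRCm38. DESeq2 1.42.0, RLE scaling, no filter, other time terms, a replicate block and leaving out each library were alternatives. Permutation tests used numpy 2.4.6 and scipy 1.17.1. The tests were checked on simulated counts.

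The members and lists were chosen with earlier results of these data known. Named genes were all members, in each pathway list the called genes (at most 3, by p), and for each member the 3 genes with the highest r in ARC. In the marker lists some genes were named outside this rule, and some called genes are not given. Lists were prohormone processing, receptors, leptin signalling, growth hormone, kisspeptin and galanin genes, arcuate transcription factors, and markers of cell types. One of the pituitary markers, and the sum of that list, are not reported here.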

Additional observations from a re-analysis of the deposited data

Results flagged for a closer look

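The 9 genes were examined for single libraries far from the rest of their group in the 2 Hu groups of 10 libraries (18 groups of values). The rate of about 1 chance flag in 20 groups is for independent groups of normally distributed values. Here CPM were on the linear scale, each group held all zeitgeber times and genes varied together, so that rate does not apply directly. In 4 of them the highest library stood apart, all in SCN. Pomc stood at 8.03 CPM in Hu ZT 6 replicate 1, where the next library had 2.77 CPM and the median was 1.67 CPM. Lepr stood at 7.97 CPM in that library, against a next value of 3.73 CPM. Ghrh stood at 1.78 CPM and Tac2 at 45.8 CPM in the unnumbered Hu library of ZT 22, against next values of 0.905 and 25.7 CPM. Both libraries are the only Hu library of their time in SCN, so a library that stood apart and an effect of time cannot be told apart.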

How the results depend on the processing

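The 7 regional differences kept their direction and call under all 51 alternatives, and no member passed between arms under any of 30 in either region. Of 570 recomputed values of comparisons, 535 were rated the same as reported. For correlations this meant the same sign and side of the threshold. For the other comparisons it meant a count of members called that was equal or within a set ratio. Of 3614 values for single genes, 3559 were rated the same. That rating used direction and side of the threshold for differences, and the side alone for rhythms. The cause of the rest was not tested. Members with a common rhythm in SCN, 1 as reported, were 0 with no filter on low counts, without ZT 22, with ZT as a factor, with a replicate block and with the libraries that stood apart left out (chosen after seeing the data), 2 with DESeq2, 4 with both regions in 1 fit, and 0 to 1 with each library left out. For a rhythm in the Mu arm of SCN, 0 as reported, they were 2 with DESeq2 and 1 with both regions in 1 fit. Over all genes, a common rhythm in SCN was called for 228 as reported, 806 with DESeq2 and 1341 with both regions in 1 fit. It was called for 59 without ZT 22, 31 with ZT as a factor, 148 with a replicate block and 100 with the libraries that stood apart left out. In the Mu arm of SCN, all genes called were 31 as reported, 289 with DESeq2 and 386 with both regions in 1 fit. The r of Pomc and Cartpt in ARC was 0.0165 in deviations from the mean of each arm and ZT, 0.505 within Mu, 0.511 within Hu, 0.430 without the 2 farthest libraries and 0.451 to 0.621 with each library left out; the lowest came without Mu ZT 6 replicate 1. That of Ghrh and Gal in ARC was 0.299 to 0.479 with each left out, and passed the threshold without Hu ZT 14 replicate 1. That of Agrp and Npy in SCN was -0.0313 in deviations, -0.220 within Mu, 0.679 within Hu and -0.0129 to 0.284 with each left out.

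Signs that turned belonged to differences that had not passed. The arm difference in ARC was -0.0688 for Lepr without ZT 22 and -0.00695 to 0.15 with each library left out. In SCN that of Ghrh was -0.0135 without ZT 22, -0.0248 with the replicate block and -0.0254 to 0.56 with each left out, and that of Lepr -0.44 to 0.13. Region by arm values with each left out ran from -0.17 to 0.0521 for Cartpt, -0.28 to 0.32 for Ghrh and -0.50 to 0.0890 for Lepr.

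Counts of all genes called ranged, over libraries left out and then over the other settings, from 1 to 2 and 0 to 14 (arm, ARC), 0 to 1 and 0 to 1 (arm, SCN), 86 to 282 and 48 to 514 (Mu rhythm, ARC), 5 to 18 and 0 to 92 (Hu rhythm, ARC), 429 to 814 and 154 to 1118 (common rhythm, ARC), 10 to 56 and 9 to 386 (Mu rhythm, SCN), 0 to 3 and 0 to 22 (Hu rhythm, SCN), and 109 to 445 and 31 to 1341 (common rhythm, SCN). For region by arm they were 0 with each library left out and 0 to 1 otherwise.

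Same-numbered libraries did not deviate together throughout: the mean r of their deviations was 0.119 over 20 pairs of ARC with SCN (lowest -0.17), and the lowest was -0.15 over 8 pairs of arms in ARC and -0.26 in SCN. The deviations of 2 replicates mirror each other, so these pairs hold 10, 4 and 4 independent values. With the replicate block 8 members passed between regions, Gal in addition. A relation of Kiss1 with Tac2 was planned and not run. Depth limits Ghrh in SCN, where 3 libraries had 3 or fewer counts.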
